A study of Mus musculus with 6 samples.

Results

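The genes of de novo lipogenesis were examined in mouse liver: Srebf1 and 9 genes that export citrate, supply acetyl-CoA and NADPH, or build and regulate the synthesis of fatty acid chains. The 10 members were taken by name from a list (Srebf1, Slc25a1, Acly, Acss2, Me1, Acaca, Acacb, Fasn, Thrsp and Mid1ip1), and all 10 were found among the 20914 genes of the count table. The study sequenced 6 liver RNA libraries, 3 labelled PBS and 3 labelled DOX. Both groups carry the genotype label BucheKI/KI-Hep, group names that include S10D, CKI and Alb-Cre, and a label of BDL treatment, and the mice had free access to chow. Alb-Cre denotes Cre recombinase under the albumin promoter, which acts in hepatocytes. The deposited design describes overexpression of butyrylcholinesterase in hepatocytes combined with BDL, an abbreviation usually used for bile duct ligation. The labels explain neither DOX, S10D, CKI nor BDL, and give no age, sex or wild-type group. The question asked here was whether the members differed between DOX and PBS, and by how much.

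De novo lipogenesis turns surplus carbohydrate into fatty acids. Citrate leaves the mitochondrion, is cleaved to acetyl-CoA in the cytosol, carboxylated to malonyl-CoA, and elongated to palmitate by fatty acid synthase at the expense of NADPH. In the liver the pathway is controlled at the transcript level by SREBP-1c, a product of Srebf1 that responds to insulin, and by the carbohydrate-responsive factor ChREBP, so its transcripts are known to vary with feeding.

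The libraries held 32826493 to 41102844 gene counts, and the members together took 0.129% to 0.31% of them, with at least 460 counts of each member in each library. Counting error is therefore small against the spread between libraries. Bche, the gene of butyrylcholinesterase on chromosome 3, stood at 193, 245 and 194 CPM (a gene's share of the library's counts put on a common total, scaled by the TMM method) in PBS and at 969, 448 and 595 CPM in DOX, a 3.18-fold difference (log2 fold change 1.67, SE 0.27, edgeR adjusted p = 0.106). Genes that define hepatocytes, among them Alb, Ttr and Apoa1, were abundant in every library, and the 10 markers on that list summed to 98311 to 117245 CPM in PBS and 114024 to 171456 CPM in DOX. Alb made up most of that difference: 6 of the 10 were positive (median 0.13), while Ass1, Cps1, Hnf4a and Serpina1a were negative (-0.32 to -0.06), with Hnf4a lower in all DOX libraries than in all PBS libraries. The Alb share of a library's counts was 4.87% to 5.81% in PBS and 6.09% to 10.2% in DOX. Whether each library is a mouse of its own is not stated, so a p-value here reflects library-to-library spread, which may be technical.

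All 10 members had higher mean levels in DOX than in PBS, and in 9 of them the lowest DOX library lay above the highest PBS library. Thrsp showed the largest difference (3.24-fold), followed by Acacb (2.84-fold), Fasn (1.94-fold) and Me1 (1.94-fold). Srebf1 itself stood 1.5-fold higher, and Mid1ip1 was the exception, with overlapping groups and a 1.17-fold difference. The median log2 fold change of the 10 was 0.88, where the median of the 13725 tested genes was -0.02. Of all tested genes, 47% had a positive value and 7.84% had all DOX libraries above all PBS libraries, while 9.02% had all of them below and no member did. No member passed an adjusted p of 0.05 over all genes (edgeR quasi-likelihood test, Benjamini-Hochberg), a threshold that 0.0291% of all genes passed in either direction and 0.0219% as higher. At an unadjusted p of 0.05, 9 of 10 members were higher, against 5.03% of all genes. With DESeq2, 9 of 10 members passed, all but Mid1ip1, against 0.863% of all genes that passed as higher with that tool. Without the filter on low counts edgeR called 3 members, Acaca, Acacb and Thrsp, against 0.215% of all genes. The members were chosen with earlier results of these data known, so these comparisons with all genes are descriptive.

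**Figure D1:**
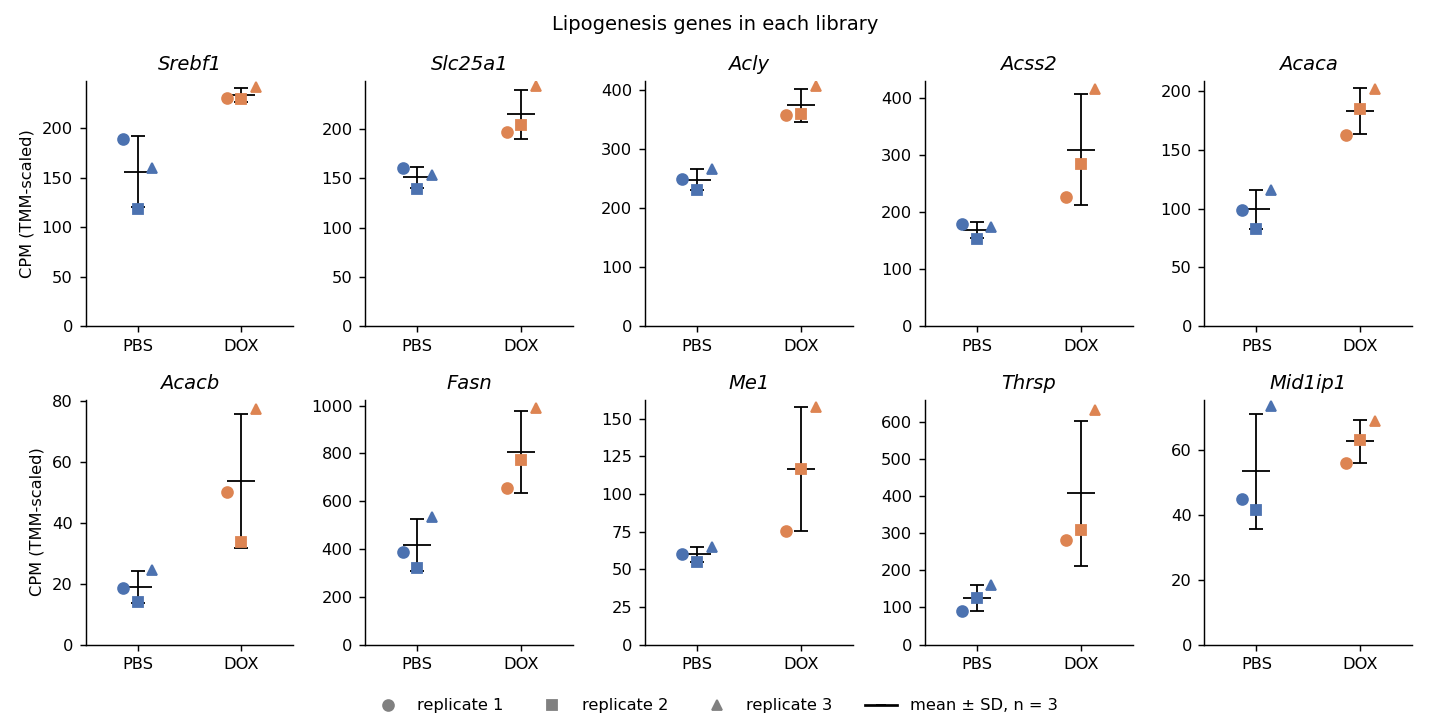
Levels of the 10 genes in each library as TMM-scaled CPM on linear axes that start at 0, with PBS in blue, DOX in orange, a symbol per replicate number, and the mean ± SD of n = 3 libraries. The groups do not overlap in 9 panels, and in Mid1ip1 the highest library is PBS replicate 3 at 73.5 CPM.

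Srebf1 encodes the SREBP-1 proteins, membrane-bound transcription factors that are released by cleavage and activate the genes of fatty acid synthesis. It lies on chromosome 11, from 60199089 to 60222581 on the minus strand of GRCm38. It stood at 189.6, 118 and 160.0 CPM in PBS replicates 1 to 3 and at 231, 229 and 242 CPM in DOX. The DOX libraries were close together (CV 2.9%), while the PBS libraries were spread over a 1.60-fold range (CV 22.9%), with PBS replicate 2 lowest. The log2 fold change was 0.58 (SE 0.16, 95% interval 0.21 to 0.96, edgeR adjusted p = 0.369). DESeq2 placed it just past the threshold (adjusted p = 0.0495). Gene counts do not separate the SREBP-1a and SREBP-1c transcripts. Srebf1 also shares 109 exonic bases with Rai1 on the opposite strand, which did not exceed 17.6 CPM in a library, and the use of strand in the authors' counting is not given in the sources used here.

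Among the genes of substrate supply, Slc25a1 is the mitochondrial carrier that exports citrate (chromosome 16, 17925223 to 17928219, minus strand). Its levels were 161, 139 and 153 CPM in PBS and 197, 205 and 244 CPM in DOX. Both groups were tight, and the difference was the smallest among the 9 separated members, at 1.42-fold (log2 fold change 0.51, SE 0.12, adjusted p = 0.259). Acly, the ATP citrate lyase that cleaves exported citrate to acetyl-CoA (chromosome 11, 100476353 to 100528000, minus strand), stood at 248, 229.6 and 265 CPM in PBS. In DOX it stood at 357, 358 and 406 CPM. Its spread was low in both groups (CV 7.23% and 7.44%), so that a 1.51-fold difference gave a comparatively small p (log2 fold change 0.59, SE 0.11, adjusted p = 0.196).

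Acss2 makes acetyl-CoA from acetate in the cytosol and nucleus (chromosome 2, 155517948 to 155585724, plus strand). It stood at 179, 154 and 173 CPM in PBS and at 226, 285 and 417 CPM in DOX, so that the DOX libraries spanned a 1.84-fold range above a narrow PBS group. For Acss2 the fit gave 0.88 on the log2 scale (SE 0.21, adjusted p = 0.267). Exons of Acss2 overlap those of Gss, on the opposite strand, over 395 bases, and Gss reached 141 CPM, so part of the Acss2 counts could belong to it if strand was not used. Me1, the cytosolic malic enzyme that yields NADPH (chromosome 9, 86581371 to 86695953, minus strand), stood at 60.3, 54.9 and 64.9 CPM in PBS and at 75.3, 117 and 157 CPM in DOX. Its DOX replicate 1 lay only 1.16-fold above the highest PBS library, the narrowest gap among the 9 separated members. The log2 fold change of Me1 was 0.96 (SE 0.23, adjusted p = 0.288).

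The carboxylases make malonyl-CoA, the building unit of the chain. Acaca encodes the cytosolic alpha form that feeds fatty acid synthesis (chromosome 11, 84129672 to 84401651, plus strand). It stood at 99.0, 82.9 and 116 CPM in PBS and at 163, 185 and 202 CPM in DOX. With a 1.4-fold gap between the groups, Acaca had the smallest p of the members and ranked 31 of 13725 genes (log2 fold change 0.88, SE 0.14, adjusted p = 0.107). Acacb encodes the beta form at the mitochondrial surface, whose malonyl-CoA is known to restrain fatty acid import into mitochondria (chromosome 5, 114146535 to 114250761, plus strand). It was the least abundant member, with 18.4, 13.9 and 24.3 CPM in PBS and 50.1, 33.7 and 77.2 CPM in DOX. Its DOX libraries differed from each other by 2.29-fold, yet the lowest of them lay 1.39-fold above the highest PBS library (log2 fold change 1.51, SE 0.30, 95% interval 0.81 to 2.20, adjusted p = 0.216).

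Fasn, the multifunctional synthase that assembles palmitate, was the most counted member (chromosome 11, 120805846 to 120824547, minus strand). It stood at 388, 322 and 536 CPM in PBS and at 654, 773 and 992 CPM in DOX. PBS replicate 3 was the highest of its group and DOX replicate 1 the lowest of the other, which left a 1.22-fold gap. The log2 fold change of Fasn was 0.96 (SE 0.22, 95% interval 0.45 to 1.47, adjusted p = 0.259).

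Thrsp, the thyroid hormone responsive protein also called Spot 14, and its paralog Mid1ip1 are small proteins. Mid1ip1 is known to bind acetyl-CoA carboxylase and promote its polymerisation. Thrsp (chromosome 7, 97412938 to 97417730, minus strand) stood at 91.2, 125 and 161 CPM in PBS. In DOX it stood at 282, 308 and 632 CPM. The groups were 1.75-fold apart at their nearest libraries, the widest gap of the 10, and DOX replicate 3 stood far above the other DOX libraries (log2 fold change 1.70, SE 0.33, 95% interval 0.93 to 2.46, adjusted p = 0.208). Of all tested genes, 0.197% had a larger log2 fold change. Mid1ip1 (chromosome X, 10715013 to 10719690, plus strand) stood at 44.9, 41.5 and 73.5 CPM in PBS and at 55.8, 63.0 and 68.8 CPM in DOX. PBS replicate 3 was above all DOX libraries, and the other PBS libraries were below them. Its log2 fold change was 0.23 with a 95% interval of -0.24 to 0.71, which does not exclude a difference in either direction (adjusted p = 0.738). It was 0.53 without PBS replicate 3 and 0.08 without PBS replicate 2.

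**Figure D2:**
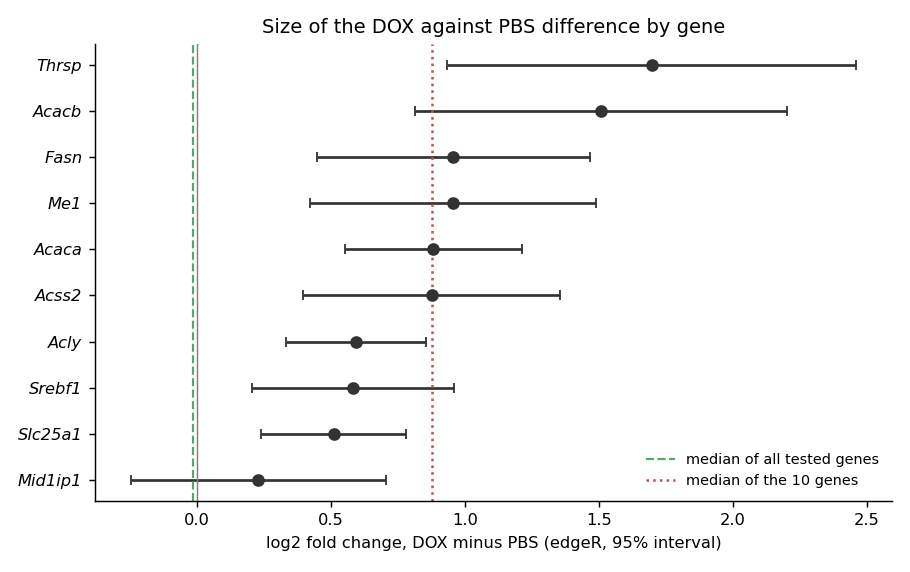
Log2 fold change of each gene, DOX minus PBS, from the edgeR fit, with its 95% interval as a bar, in order of size. The dashed line is the median of all tested genes (-0.02) and the dotted line the median of the 10 genes (0.88), and the interval of Mid1ip1 alone includes 0.

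Levels between genes were compared on the deposited FPKM values, which divide counts by a length per gene. In PBS the order of mean FPKM was Thrsp (119 ± 34.3, SD, n = 3), Slc25a1 (94.4 ± 9.70), Acss2 (62.5 ± 6.93), Fasn (41.9 ± 12.0), Srebf1 (33.5 ± 8.57), Acly (33.1 ± 3.38) and Mid1ip1 (27.2 ± 9.56). Below them stood Me1 (17.2 ± 1.95), Acaca (9.80 ± 1.91) and Acacb (1.96 ± 0.589). Neighbours whose PBS libraries overlapped were Thrsp and Slc25a1, Acss2 and Fasn, and the run from Fasn to Mid1ip1. In DOX, Thrsp stood apart at the top (348 ± 148, lowest library 246) above Slc25a1 (122 ± 8.92, highest library 131). Me1 (30.2 ± 9.66) came level with Mid1ip1 (29.0 ± 2.57) there, with overlapping libraries, whereas in PBS all Me1 libraries lay below all Mid1ip1 libraries. Within each group Srebf1 and Acly had nearly the same mean FPKM as each other (33.5 and 33.1 in PBS, 45.5 and 45.4 in DOX). These orders rest on the authors' lengths, which differ from the exon lengths of the reference annotation for some members (7850 against 5279 bases for Acly, 2833 against 10163 for Acss2).

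Ratios between members of the same library do not depend on how libraries are scaled, and 6 were computed from the FPKM values. The Thrsp to Mid1ip1 ratio was 3.79, 5.61 and 4.10 in PBS and 9.46, 9.12 and 17.2 in DOX. Here the groups did not overlap, and the mean log2 ratio went from 2.15 ± 0.30 to 3.51 ± 0.51 (SD, n = 3, exact two-sided permutation p = 0.1, the smallest that 3 against 3 libraries allow, and 0.4 after Benjamini-Hochberg adjustment over the 6 ratios). The Acaca to Acacb ratio was 5.13, 5.68 and 4.55 in PBS and 3.10, 5.23 and 2.49 in DOX. DOX replicate 2 fell inside the PBS range, and the other DOX libraries lay below it (exact two-sided permutation p = 0.3, adjusted 0.45). The groups overlapped for the other 4 ratios. The Fasn to Acaca ratio, of successive steps, had the smallest difference in mean log2 ratio, at 2.07 ± 0.14 in PBS and 2.15 ± 0.16 in DOX (n = 3, exact permutation p = 0.5). The Acly to Slc25a1 ratio was likewise nearly level, at -1.51 ± 0.08 and -1.43 ± 0.06 (n = 3, exact permutation p = 0.2). Mean log2 ratios of Acly to Acss2 were -0.91 ± 0.07 and -1.16 ± 0.35 (n = 3, exact permutation p = 0.4), and those of Fasn to Srebf1 were 0.32 ± 0.36 and 0.68 ± 0.27 (n = 3, exact permutation p = 0.2).

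**Figure D3:**
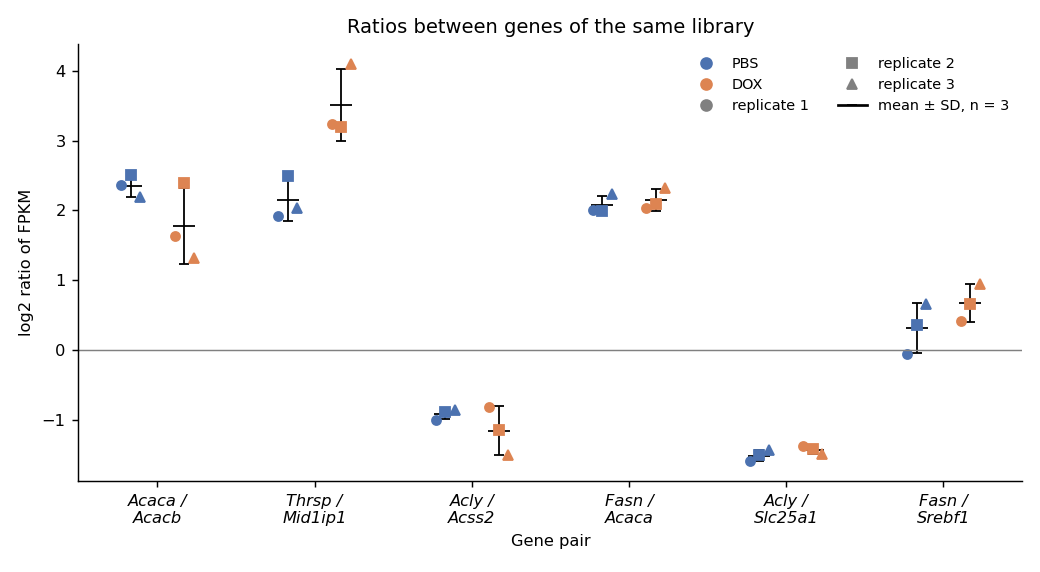
Log2 ratio of FPKM for 6 gene pairs within each library, with PBS in blue, DOX in orange, a symbol per replicate number, and the mean ± SD of n = 3. The Thrsp to Mid1ip1 ratio is the pair whose groups do not overlap, and the Fasn to Acaca and Acly to Slc25a1 ratios lie close together in all 6 libraries.

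On TMM-scaled CPM the members followed a shared order of libraries. DOX replicate 3 was the highest DOX library for 10 of 10 members and the highest of all 6 for 9. PBS replicate 2 was the lowest of all 6 for 9. Part of this order depended on the scaling. On the deposited FPKM, DOX replicate 2 exceeded DOX replicate 3 for Srebf1 (46.9 against 44.4), Acaca (17.5 against 17.1) and Mid1ip1 (30.7 against 30.1). Relative to each gene's mean over the 6 libraries, the members averaged -0.45, -0.65 and -0.20 log2 CPM in PBS replicates 1 to 3 and 0.21, 0.33 and 0.76 in DOX replicates 1 to 3. Within DOX this was not the order of Bche, which was highest in replicate 1. Without both PBS replicate 2 and DOX replicate 3, a choice made after seeing these values, all 10 members were still positive, their median log2 fold change was 0.58, and 0 passed (lowest adjusted p = 0.290, for Acaca).

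**Figure D4:**
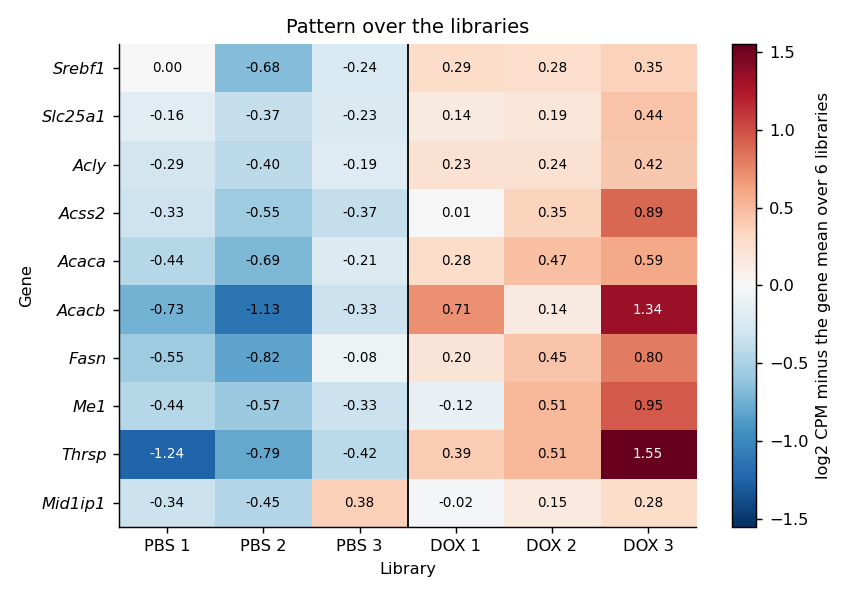
Log2 CPM of each gene minus its mean over the 6 libraries, as a colour scale with the values printed, genes in rows and libraries in columns. DOX replicate 3 holds the highest values of 9 genes (up to 1.55, in Thrsp) and PBS replicate 2 the lowest of 9.

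Markers of other liver cells also differed between these libraries. The 10 cholangiocyte markers summed to 291 to 431 CPM in PBS, with PBS replicate 2 highest, and to 146 to 280 CPM in DOX, with DOX replicate 3 lowest. Every one of these 10 was negative (median -0.62), and 0 passed with edgeR (1 with DESeq2). The 10 endothelial markers all had positive values (median 0.88, 0 passed), and their sum was lowest in PBS replicate 2 (57.4 CPM, other libraries 139 to 259). Stellate cell markers (204 to 424 CPM in PBS, 220.2 to 483 in DOX), macrophage markers (1105 to 1135 and 977 to 1307) and neutrophil markers (15.0 to 30.2 and 11.8 to 19.5) overlapped between the groups in their sums, with 0 passing. By sign, all 10 stellate markers were positive (median 0.33), all 6 tested neutrophil markers negative (median -0.55), and 6 of 10 macrophage markers positive (median 0.03). Of the adipocyte markers, Plin1 and Retn, of a cell type rich in lipogenic enzymes, were at or near 0, with at most 1 count in a library, while Adipor2 and Pnpla2, which liver also expresses, made up most of the sum (418 to 531 and 448 to 492). Lipe (11.4 to 15.8 CPM), Car3 (1.30 to 11.5 CPM) and Adrb3 (0.650 to 0.847 CPM) overlapped between the groups. Adipoq, Lep and Cfd were not found under these names among the genes of the count table, so they could not be examined. In bulk RNA, more cells of a type and more RNA per cell cannot be told apart, and the part of cell composition in the members' differences was not tested.

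The other genes of the pathway were taken from 7 lists, and 0 of their 96 genes passed over all genes in either direction. DESeq2 called 10 higher and 1 lower, against 128 higher and 48 lower among 14828 genes. Of 20 genes that process SREBP-1 or act with it, 12 had a positive value, with a median log2 fold change of 0.05. Those of smallest p were Lpin1, a phosphatidate phosphatase (log2 fold change 1.09, SE 0.33), Nfya, a subunit of the factor NF-Y that binds the CCAAT sequence (-0.39, SE 0.14), Insig2, a retention protein for the SREBP complex (0.47, SE 0.19), and Scap, the SREBP escort protein (0.25, SE 0.11). Their adjusted p was 0.399 to 0.504. Chosen after their values were seen, Mlxipl, the gene of ChREBP, stood 0.38 higher on the log2 scale (SE 0.19), and Nr1h3, the gene of the oxysterol receptor LXR alpha that activates Srebf1, 0.13 higher (SE 0.13), and both overlapped between the groups.

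On the list of insulin and glucose input, 9 of 13 were positive, with a median of 0.18. Pklr, the liver pyruvate kinase, had a log2 fold change of 1.35 (SE 0.18), Slc2a2, the hepatic glucose transporter, 0.96 (SE 0.17), and Khk, the fructokinase, 0.83 (SE 0.13). Their adjusted p was 0.105 to 0.135, and these 3 were called by DESeq2 as well as by edgeR run on unfiltered counts.

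Of 15 genes of desaturation and elongation, 13 were positive (median 0.36) and 9 had all DOX libraries above all PBS libraries, against 7.84% of all genes. Fads2, Fads1 and Elovl5, which make and extend polyunsaturated fatty acids, had log2 fold changes of 0.93 (SE 0.12), 0.65 (SE 0.11) and 0.62 (SE 0.12), and Fads3 one of -0.62 (SE 0.12), with adjusted p of 0.105 to 0.216. Scd1, the main liver desaturase, was singled out after its values were seen: it stood at 3717, 191 and 1468 CPM in PBS and at 2436, 3713 and 8369 CPM in DOX. Like most members it was lowest in PBS replicate 2 and highest in DOX replicate 3, but its range was far wider and its groups overlapped (log2 fold change 1.43, SE 0.87, adjusted p = 0.613).

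All 9 genes on the list of NADPH supply were positive (median 0.24). Those of smallest p were Tkt, Taldo1 and Idh1, with log2 fold changes of 0.44 (SE 0.13), 0.25 (SE 0.08) and 0.37 (SE 0.12). Of these, Tkt and Taldo1 act in the pentose phosphate pathway without yielding NADPH themselves. The largest value on the list was that of Nnt, the mitochondrial transhydrogenase, at 0.84 with a wide error (SE 0.38) and overlapping groups, and it was named after its values were seen. The remaining lists lay nearer to the median of all genes. The list of mitochondrial citrate supply had 10 of 15 positive (median 0.15). It also holds cytosolic enzymes and kinases that inhibit pyruvate dehydrogenase, so a positive value does not always mean more supply. By p the first were Pdk1, an inhibitory kinase of pyruvate dehydrogenase, at 0.87 (SE 0.22) and Pdk4, of the same family, at 0.32 (SE 0.13). Genes that regulate carboxylase or use malonyl-CoA and acetyl-CoA had 8 of 14 positive (median 0.04), with values from -0.73 to 0.70, and the smallest p belonged to Acat2, the cytosolic thiolase, at 0.70 (SE 0.16) and Hlcs, the ligase that attaches biotin to carboxylases, at 0.26 (SE 0.12). Mitochondrial fatty acid synthesis, a separate pathway, had 8 of 10 positive (median 0.06), and the smallest p belonged to Ndufab1, its acyl carrier protein, at 0.21 (SE 0.13) and Mcat, the malonyl transferase, at 0.17 (SE 0.14).

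**Figure D5:**
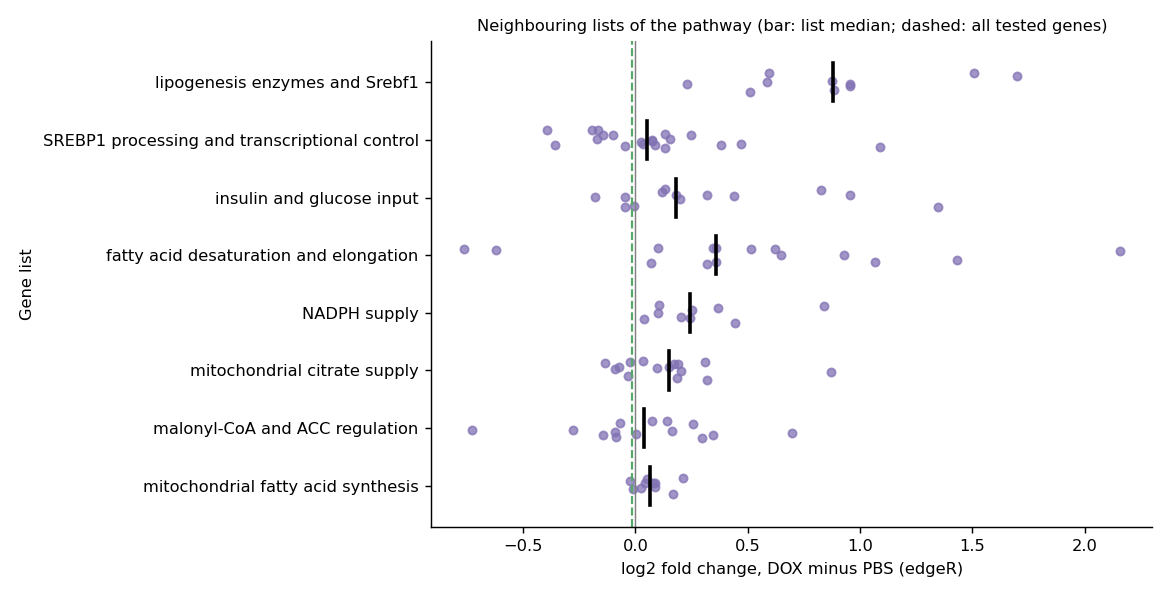
Log2 fold change of each tested gene, DOX minus PBS, in the 10 lipogenesis genes and 7 neighbouring lists, a point per gene, with the list's median as a bar and the median of all tested genes as a dashed line. The 10 genes have the highest median (0.88), followed by desaturation and elongation (0.36).

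Genes with the nearest pattern over the 6 libraries were found among 11951 genes with a mean of at least 1 CPM. The measure was the root mean square difference of log2 CPM after each gene was set to its own mean. Nearest to Fasn was Acaca, another member, with a difference of 0.13, followed by Elovl6, which elongates palmitate (0.13), and Pdilt (0.13). Acss2 and Me1 ranked 16 and 17. Nearest to Srebf1 were Yif1b (0.06), Aox3 (0.08) and Ifitm6 (0.10), none of them members. The nearest members were Slc25a1 at rank 38 and Acly at rank 47. Pdilt (0.51 to 1.94 CPM) and Ifitm6 (1.03 to 2.13 CPM) were low, so counting error weighs more in their patterns. The measure also counts the size of a change. Thrsp (rank 11315) and Acacb (rank 10282), whose differences between libraries were the largest of the members, therefore ranked far from Srebf1. Both had all DOX libraries above all PBS libraries, as Srebf1 did, so a low rank here does not mean an opposite direction.

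The promoters of the members were also described, and 3 are shown. They are those of Fasn, the end enzyme of the pathway, Srebf1 at the innermost of its 3 annotated starts, and Mid1ip1, the member whose groups overlapped. Each is the 250 bases before the transcription start, from RefSeq on GRCm38.p6, 5′ to 3′ on the gene's strand, with CCAAT on either strand (CCAAT or its reverse complement) in capitals. CCAAT is bound by NF-Y, which is known to act with SREBP on lipogenic promoters. The windows are chr11:120824548-120824797 (minus strand) for Fasn, chr11:60210472-60210721 (minus strand) for Srebf1 and chrX:10717115-10717364 (plus strand) for Mid1ip1. Those of Srebf1 and Mid1ip1 lie inside the gene spans given above.
Fasn: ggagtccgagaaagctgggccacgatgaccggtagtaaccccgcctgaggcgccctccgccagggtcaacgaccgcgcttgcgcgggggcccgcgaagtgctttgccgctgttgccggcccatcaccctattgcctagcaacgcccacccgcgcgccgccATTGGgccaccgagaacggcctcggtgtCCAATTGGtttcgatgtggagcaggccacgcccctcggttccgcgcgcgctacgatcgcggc
Srebf1: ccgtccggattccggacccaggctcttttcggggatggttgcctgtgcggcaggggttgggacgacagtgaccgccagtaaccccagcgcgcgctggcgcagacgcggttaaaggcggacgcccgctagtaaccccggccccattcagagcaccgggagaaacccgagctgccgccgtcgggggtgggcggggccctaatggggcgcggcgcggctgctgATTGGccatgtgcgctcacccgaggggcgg
Mid1ip1: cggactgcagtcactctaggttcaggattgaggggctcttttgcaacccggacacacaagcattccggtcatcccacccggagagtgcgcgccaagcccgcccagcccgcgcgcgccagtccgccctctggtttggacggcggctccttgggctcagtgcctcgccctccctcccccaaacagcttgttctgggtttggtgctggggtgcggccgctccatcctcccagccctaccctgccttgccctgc
Fasn held CCAAT 3 times, at -90, -62 and -59 counted from the start, and the matches at -62 and -59 overlap on opposite strands. Srebf1 held it at -30 in the window shown, and Mid1ip1 did not hold it. Over the 13 annotated starts of the members, 8 windows in 7 genes held CCAAT, among them Thrsp at -79 and -52 and Acacb at -87. The windows of Acaca and Acly, both members whose groups did not overlap, and of Mid1ip1 did not. Whether CCAAT goes with the difference between DOX and PBS was not tested. Those of Acaca (chr11:84195188-84195437), Acacb (chr5:114165268-114165517) and Mid1ip1 lie wholly inside the gene spans given above. They need not be the main promoters of these genes, so a missing CCAAT there does not show that the promoter lacks it. CCAAT was present in 33.8% of all 32851 promoter windows of this length. GGGCGG, the GC box bound by Sp1, was found in 7 of the 13 windows and in 32.7% of all, and TATAAA in 1 (Acacb) and in 12.4% of all. The sterol regulatory element bound by SREBP, searched as its 10-letter consensus, was found in 0 of the 13 and in 0.192% of all. At so low a share 13 windows would rarely hold a match, and inexact forms were not searched. The 0 therefore does not show that these promoters lack the element. Matches were searched on both strands and are a description of letters in these windows.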

How the data were processed

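RNA of mouse liver was sequenced in 6 libraries (SMARTER mRNA-Seq kit, per the labels' protocols). The submitters' processing notes name GRCm38 and mm10, while neither an aligner, a counting tool nor strand use is named in what was available here. The authors deposited whole-number read counts per gene and FPKM values, and the FPKM equal the deposited counts divided by 1 length per gene and the column total (18913 of 18913 genes with counts in 2 or more libraries, relative tolerance 1e-05).

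Counts were tested for DOX against PBS with edgeR 4.0.16 (R 4.3.3): filterByExpr, which left 13725 genes and all 10 members, scaling by TMM, then a quasi-likelihood test (legacy = TRUE, no block), adjusted by Benjamini-Hochberg over all genes, threshold 0.05. Standard errors come from the F statistic, and intervals are 95%. The procedure was tested on simulated counts. A floor of 3 counts corresponds to 0.073 to 0.0914 CPM. Ratios were tested by exact permutation. Alternatives were other scalings, DESeq2 1.42.0, limma-voom 3.58.1, no filter, legacy = FALSE, limma on log2 FPKM plus 1 or 0.1, the replicate number as a block, and each library left out. Fitted values of limma on FPKM are on the log2(FPKM + pseudocount) scale, for genes with a mean of at least 1 FPKM.

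Named genes are the members, the 2 to 4 of smallest p of each list, and the 3 nearest patterns to Srebf1 and Fasn, with Bche and marker genes where a value was needed. Scd1, Mlxipl, Nr1h3 and Nnt fall outside this rule and were chosen after their values were seen. The members and lists were chosen with earlier results of these data known. Of the list genes, 1 was matched by a synonym (Tf as Trf). No protein sequences were used here.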

Additional observations from a re-analysis of the deposited data

How the results depend on the processing

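Each of the 10 genes kept a positive log2 fold change in all 17 alternatives, and their median ranged from 0.58 to 1.02. It was 0.70 with limma on log2(FPKM + 1), with or without the filter, 0.64 to 1.02 when 1 library was left out (lowest without DOX replicate 3), and 0.58 without PBS replicate 2 and DOX replicate 3 together. Scaling by library size only moved the median of all genes to -0.15 and that of the 10 genes to 0.74. With DESeq2, 9 of the 10 passed, 11 of the list genes and 176 of all genes. Without the filter on low counts 3, 4 and 61 passed, and limma-voom gave 0 of the 10 and 2 of all genes. Leaving out 1 library gave 0 of the 10 and 3 to 4 of all genes. The Fasn to Acaca difference in log2 ratio was -0.012 to 0.16 when 1 library was left out, negative without DOX replicate 3. The same range was -0.88 (without DOX replicate 2) to -0.34 (without DOX replicate 3) for Acaca to Acacb, -0.41 (without DOX replicate 1) to -0.063 (without DOX replicate 3) for Acly to Acss2, 0.17 (without PBS replicate 1) to 0.52 (without PBS replicate 3) for Fasn to Srebf1, 0.043 to 0.12 for Acly to Slc25a1 and 1.07 to 1.53 for Thrsp to Mid1ip1. For each of these, the cause was not tested.

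With the replicate block, 2 of the 10 passed, Thrsp (adjusted p = 0.023) and Acacb (adjusted p = 0.011), along with 1 list gene, Pklr, and 21 of all genes. Deviations from the group means correlated at 0.19, 0.13 and 0.0097 for equal numbers, and PBS replicate 3 correlated best with DOX replicate 1 (0.05). Replicate numbers carry no stated meaning and were treated as names. With 3 libraries a group, the exact permutation test cannot go below 0.1.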
